A study of Arabidopsis thaliana with 36 samples.

Results

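RALFL32 (AT4G14010) is an Arabidopsis gene of the RALF family (RAPID ALKALINIZATION FACTOR), and it was followed here through its single probe set on the ATH1 array, across 12 groups of sorted root cells. It is 1 of 13356 genes that had a probe set naming exactly 1 gene, and 1 of 11 such RALF genes, out of 34 RALF genes in the RefSeq annotation. The gene was chosen by its measured signal over these same groups, so its values are given as a description, with no test.

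RALF genes encode small secreted peptides rich in cysteine, which raise the pH of the apoplast and restrain cell expansion. Receptor-like kinases of the FERONIA (FER) family bind them at the plasma membrane, together with small GPI-anchored co-receptors of the LORELEI-like group, and leucine-rich repeat extensins bind RALF peptides in the cell wall. Arabidopsis plants without FER, or without several of these extensins, are hypersensitive to salt, which is one reason why RALF signalling is studied in salt-treated roots.

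The arrays measured total RNA of protoplasts sorted by GFP fluorescence from seedling roots of ecotype Columbia, 6 days after germination. The reporter lines were WER::GFP for epidermis with lateral root cap, PET111 for columella root cap, CORTEX for cortex, SCR::GFP for endodermis with quiescent centre, WOL::GFP for stele and S32 for protophloem. A reporter line defines each population, so each sample holds the cells in which that reporter was bright. The protophloem lies within the stele, so the cells of these 2 populations overlap in the root. Each population was sorted from roots kept on standard medium and from roots moved for 1 h to medium with 140 mM NaCl before protoplasting, with 3 arrays in each of the 12 groups and 36 arrays in all. Every group went through protoplasting, sorting and a two-cycle amplification of the RNA. The labels number the replicates and do not say whether they came from separate cultures, so standard deviations and p-values measure the spread between arrays. The number of arrays limits the precision. In these sorted samples of many cells, fewer cells of a type and less RNA per cell cannot be told apart.

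Values are MAS5 signals, linear intensities that the authors scaled to the same trimmed mean on each array. The 40th percentile of an array, used here as a mark for low signals, lay between 32.4 and 66.3. Replicate 3 of stele on standard medium stood apart from its group in the root hair markers, the expansin genes EXPA7 and EXPA18. Their summed signal ran from 202 to 2210 over the 3 stele arrays on standard medium, with the highest value on that array. It also spread over the 3 stele arrays with salt, from 62.8 to 1370. The salt-minus-standard differences named in stele are therefore also given without standard replicate 3, with all 3 salt arrays kept. Stele levels and ratios between populations include it.

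On standard medium RALFL32 was brightest in protophloem and dimmest in cortex. In protophloem its signal was 1371, 2818 and 2976 on the 3 arrays, with a mean of 2389 ± 884 (SD, n = 3). In endodermis it was 833, 715 and 1410, with a mean of 986 ± 372 (SD, n = 3). In stele it was 377, 374 and 761, with a mean of 504 ± 223 (SD, n = 3). The protophloem and endodermis arrays overlapped. The endodermis and stele arrays overlapped only through stele replicate 3, at 761 against the lowest endodermis array at 715. In columella the signal was 430, 153 and 530 (371 ± 196, SD, n = 3), a range that overlapped with that of stele. In epidermis it was 95.8, 100 and 72.7 (89.5 ± 14.7, SD, n = 3), below every columella array. In cortex it was 12.6, 23.9 and 31.3 (22.6 ± 9.38, SD, n = 3), below every epidermis array and below the 40th percentile on each of the 3 arrays. A signal this low may be no more than background, since detection calls were not used here. With each cortex array set at its own 40th percentile in place of its dimmer RALFL32 signal, protophloem was at least 63.1-fold brighter than cortex.

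**Figure D1:**
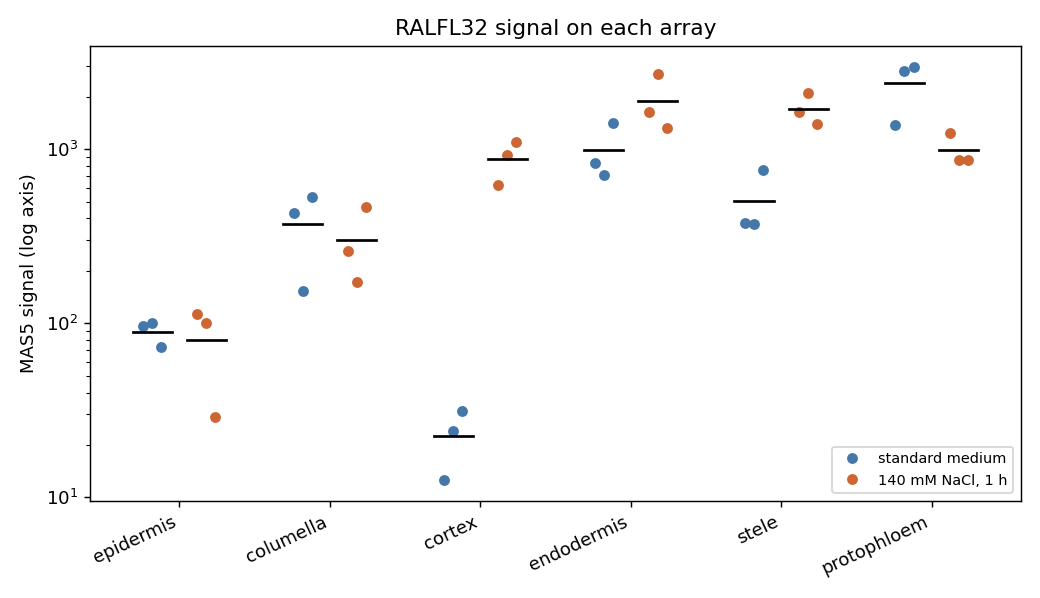
MAS5 signal of RALFL32 (log axis) on each of the 36 arrays, by population, with standard medium in blue and 1 h of 140 mM NaCl in orange; black bars are the means of 3 arrays. The cortex arrays move from 12.6 to 31.3 on standard medium up to 622 to 1099 with salt, while the protophloem arrays with salt lie below those on standard medium.

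With salt the order changed, and cortex moved from the lowest place to the fourth. The cortex arrays read 622, 924 and 1099, with a mean of 882 ± 241 (SD, n = 3), each of them far above the standard arrays of 12.6 to 31.3. The stele arrays read 1634, 2102 and 1391 (1709 ± 362, SD, n = 3), also all above those on standard medium. The protophloem arrays read 1235, 867 and 862 (988 ± 214, SD, n = 3), and all 3 lay below the lowest standard array at 1371. The salt arrays thus lay apart from the standard arrays on the upper side in cortex and stele and on the lower side in protophloem. Of all 17633 probe sets tested, the salt arrays lay wholly above the standard arrays for 29.8% in cortex and for 16.1% in stele, and wholly below them for 19.1% in protophloem.

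The endodermis arrays read 1640, 2691 and 1315 with salt (1882 ± 719, SD, n = 3), and the lowest of them fell below the highest standard array at 1410. The columella arrays read 259, 173 and 468 (300 ± 152, SD, n = 3), within the range on standard medium. The epidermis arrays read 112.7, 99.7 and 29.1 (80.5 ± 45.0, SD, n = 3), where replicate 3 lay below and replicate 1 above all standard arrays. In these 3 populations the arrays of the 2 media overlapped.

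On the scale of log2(signal + 16), which damps changes of low signals, the salt-minus-standard difference of RALFL32 was 4.53 ± 0.43 (SE) in cortex. With the dim standard arrays set at their 40th percentile, the salt signal was at least 24-fold higher. With an offset of 1 or 64 in place of 16 the log2 difference was 5.28 or 3.42. In stele the difference was 1.79 ± 0.43 (SE), or 3.46-fold, and without replicate 3 on standard medium it was 2.12. In endodermis it was 0.92 ± 0.43 (SE), or 1.89-fold. In protophloem it was -1.20 ± 0.43 (SE), which is 2.3-fold lower. The differences in epidermis (-0.26) and columella (-0.24) were smaller than their standard error of 0.43. The mean over the 6 populations, 0.92 ± 0.17 (SE), averages 3 positive and 3 negative differences and describes no single population.

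On the same scale, 10 of all probe sets tested had a larger positive difference than RALFL32 in cortex, a place that rests on the low standard signal. The numbers were 646 in endodermis and 686 in stele, while 1008 had a larger negative difference in protophloem. The median difference of all probe sets was 0.17 in cortex, -0.08 in endodermis, -0.23 in stele and -0.07 in protophloem. Relative to that median RALFL32 stood at 4.36 in cortex, 1.00 in endodermis, 2.02 in stele and -1.13 in protophloem.

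On standard medium the endodermis was at least 26.4-fold brighter than cortex, by the same bound, and with salt its mean was 2.13 times the cortex mean. Among the other 5 populations the highest mean was 26.7 times the lowest on standard medium (protophloem over epidermis) and 23.4 times with salt (endodermis over epidermis). With salt the endodermis and stele arrays overlapped at the top, with mean log2 levels of 10.82 and 10.73. Protophloem (9.95) and cortex (9.77) followed and overlapped with each other. Columella (8.19) lay below every cortex array, and epidermis (6.45) lay below every columella array. Protophloem, 4.74 times as bright as stele on standard medium, was at 0.578 of stele with salt.

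Several other measures moved with the medium in the cortex arrays. AT1G09750, the marker of the cortex list, went from 2650 ± 413 to 235 ± 27.2 (SD, n = 3), a log2 difference of -3.40 with a limma adjusted p of 6.26e-08. Its signal in cortex with salt, 207 to 261, was still above the highest value of the other salt-treated populations, 42.5 in protophloem. The 5 markers of inner tissues and quiescent centre (OPS, LHW, PHV, AGL42 and AT4G28100) summed to 694 to 831 on standard medium and 678 to 815 with salt, so their summed level in cortex overlapped between media. That sum is led by its brightest genes, AT4G28100 and LHW (mean log2 levels 8.64 and 7.95 in cortex on standard medium). On that medium AT4G28100 was at 8.84 in endodermis, and LHW at 9.25 in stele. Since AT4G28100 was nearly as bright in cortex as in endodermis, the sum cannot by itself tell inner cells from cortex cells. The cortex differences of AT4G28100 and LHW were negative, while those of OPS, PHV and AGL42 were positive. Of these 5, the transcription factor genes PHV (1.07, adjusted p = 0.0162) and AGL42 (1.18, adjusted p = 0.00684) rose in cortex and AT4G28100 fell (-1.18, adjusted p = 0.000474), while OPS (0.75, adjusted p = 0.0919) and LHW (-0.77, adjusted p = 0.0921) did not pass the test. The root hair markers EXPA7 and EXPA18 summed to 93.6 to 136 on standard medium and 381 to 837 with salt, though neither passed the test (adjusted p = 0.0975 and 0.157). No marker of these lists was at 0. The genes of the reporters WER, SCR and AHK4 (WOL) had no probe set naming 1 gene and were not checked.

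The 5' to 3' signal ratio of the GAPDH control probe sets, a measure of how far transcripts were copied, also moved. In cortex it was 0.444 ± 0.0596 on standard medium and 0.15 ± 0.076 with salt (SD, n = 3). In protophloem it went the other way, from 0.0499 ± 0.0318 to 0.162 ± 0.088, and in stele it was 0.239 ± 0.0124 and 0.226 ± 0.0452. The actin ratio in cortex was 0.0476 on standard medium and 0.129 with salt, opposite to GAPDH. With the GAPDH ratio as a covariate the RALFL32 difference was 4.35 ± 0.51 in cortex, 1.78 ± 0.43 in stele and -1.01 ± 0.52 in protophloem (SE), beside 4.53, 1.79 and -1.20 without it. Under that covariate the root hair markers EXPA7 (4.70, adjusted p = 0.00228) and EXPA18 (2.50, adjusted p = 0.0255) were called higher in cortex. The part of the markers in the RALFL32 values was not tested.

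Of the other 10 RALF genes with a probe set, 6 were bright enough to be tested. RALFL18, RALFL25, RALFL26 and RALFL28 were not, with highest signals of 85.2, 41.8, 30.6 and 60.4 on any array. RALFL22, RALFL24, RALFL27 and RALFL31 fell in the mean over the 6 populations and 0 rose, against 28.8% of all probe sets called lower and 20.8% called higher. The median difference of the 6 was -0.63, beside -0.09 for all probe sets. RALFL24 fell by 0.91 ± 0.13 (SE, adjusted p = 9.35e-07), RALFL31 by 0.81 ± 0.16 (SE, adjusted p = 0.000108) and RALFL22 by 0.72 ± 0.14 (SE, adjusted p = 6.11e-05). RALFL27 fell by 0.55 ± 0.23 (SE, adjusted p = 0.049), a call lost in 23 of the 36 fits that leave out 1 array. None of the 6 was called higher by limma in that mean, and 1, RALFL33, had an unadjusted p under 0.05 (0.37 ± 0.18 SE, adjusted p = 0.0884).

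RALFL22, whose peptide acts through FER and the wall extensins in the salt response, lost signal mostly in the outer tissues. In epidermis it read 1275, 1304 and 1258 on standard medium and 343, 272 and 411 with salt, a difference of -1.87 ± 0.33 (SE, adjusted p = 7.11e-05). Epidermis was one of the populations in which the RALFL32 arrays of the 2 media overlapped. In columella RALFL22 read 1195, 633 and 696 on standard medium and 473, 352 and 307 with salt (-1.09, adjusted p = 0.0273), and the call was lost without columella standard replicate 1 (adjusted p = 0.158), salt replicate 2 (0.114) or salt replicate 3 (0.0597). It was also lost with columella fitted alone (adjusted p = 0.0818). In cortex, where RALFL32 was so much brighter with salt, RALFL22 read 597, 582 and 565 against 716, 966 and 705, and its difference of 0.43 did not pass the test (adjusted p = 0.31).

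In epidermis 3 of the 6 other RALF genes fell, against 12.6% of all probe sets called lower there. Beside RALFL22 these were RALFL24 (-1.74 ± 0.32 SE, adjusted p = 9.89e-05), from 421 ± 69 to 115 ± 22 (SD, n = 3), and RALFL31 (-1.09, adjusted p = 0.0344). The RALFL31 call was lost without any one of epidermis standard replicates 1, 2 and 3 or salt replicates 2 and 3, with adjusted p from 0.0645 to 0.128. It was also lost with an offset of 1 (adjusted p = 0.0973) and with quantile normalization (0.0545). In epidermis the control ratios moved as well, GAPDH from 1.52 ± 0.163 to 0.248 ± 0.14, actin from 0.155 to 0.049 and ubiquitin from 0.457 to 0.316. With the GAPDH covariate the epidermis differences were -1.94 for RALFL22 (adjusted p = 0.00584), -2.55 for RALFL24 (0.000108) and -2.27 for RALFL31 (0.00188). In protophloem 2 of 6 fell, against 12.4% of all probe sets. RALFL31 went from 158 ± 51.1 to 36.6 ± 5.28 (SD, n = 3), a difference of -1.69 with an adjusted p of 0.00223. RALFL24 went from 178 to 61 (-1.24, adjusted p = 0.00488), a call lost without protophloem standard replicate 2 (adjusted p = 0.0615) and with protophloem fitted alone (0.0654). With the GAPDH ratio as a covariate both protophloem calls were lost (adjusted p = 0.142 and 0.179).

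In stele RALFL24 was the only one of the 6 called (-1.07, adjusted p = 0.0138), against 13.9% of all probe sets called lower, and this call was lost without stele salt replicate 3 (adjusted p = 0.111), standard replicate 1 (0.0593) or standard replicate 2 (0.0861). The call was also lost with quantile normalization (adjusted p = 0.0523) and with stele fitted alone (0.0797). Without standard replicate 3 the difference was -1.31 (adjusted p = 0.0043). In columella 1 of 6 was called, RALFL22, against 8.93%. In endodermis 0 of 6 were called by limma, against 2.52% of all probe sets in either direction, and 1 of 6 had an unadjusted p under 0.05.

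RALFL34, whose peptide is a ligand of the receptor kinase THE1 in Arabidopsis and acts in lateral root initiation, was the RALF gene called in cortex, against 15.7% of all probe sets called lower there. It read 1035, 790 and 831 on standard medium and 191, 194 and 526 with salt, a difference of -1.64 ± 0.38 (SE, adjusted p = 0.00126). All 3 salt arrays lay below the standard arrays, the reverse of RALFL32. RALFL33 read 1093, 1600 and 1174 in cortex on standard medium and 3465, 4710 and 1123 with salt. Its difference of 1.04 ± 0.44 (SE) did not pass the test (adjusted p = 0.0592), and without cortex salt replicate 3, the single array within the standard range, it was 1.66 (adjusted p = 0.00281). With the GAPDH covariate it was -0.07 (adjusted p = 0.924). RALFL31 in cortex (-0.62, adjusted p = 0.207) was called lower with quantile normalization (-1.07, adjusted p = 0.0431) and with the GAPDH covariate (-1.35, adjusted p = 0.0197). Across the 12 group means of log2 level, which share their arrays and scaling with RALFL32, Pearson's r with RALFL32 was -0.785 for RALFL34, 0.399 for RALFL33 and between -0.453 and 0.044 for the other 4.

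**Figure D2:**
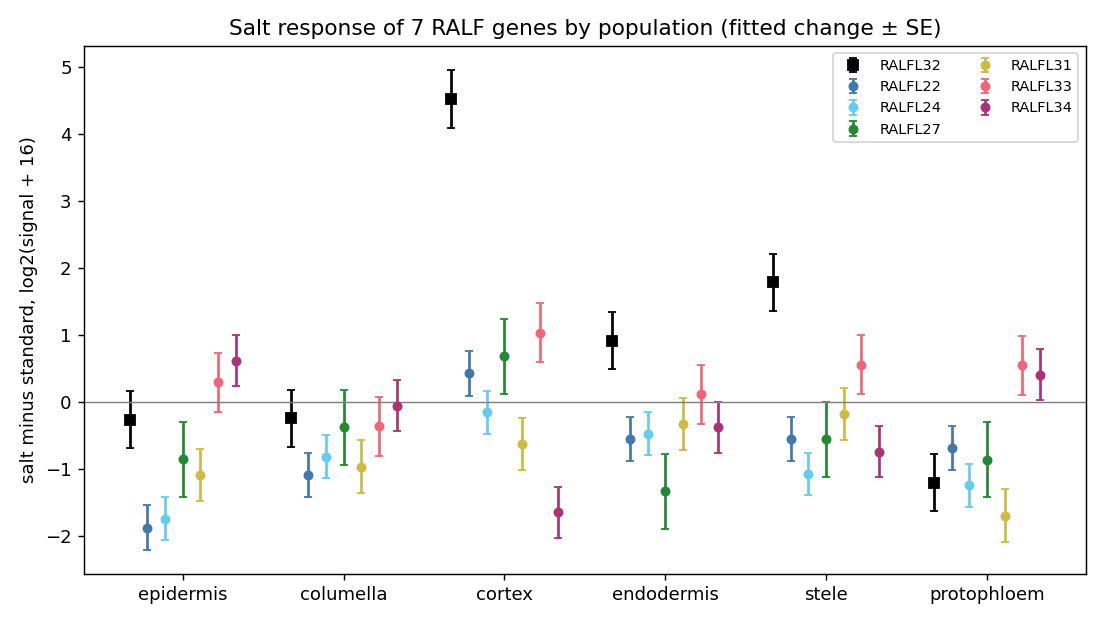
Fitted salt-minus-standard differences in log2(signal + 16) of RALFL32 and the 6 other RALF genes tested, by population; bars are standard errors from the fit over 36 arrays. RALFL32 stands at 4.53 in cortex, where RALFL34 stands at -1.64 and RALFL33 at 1.04.

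All 6 of the other RALF genes differed between populations on standard medium by limma's F-test, against 85.5% of all probe sets. The calls of RALFL33 (adjusted p = 0.0399) and RALFL22 (adjusted p = 0.0317) were lost in 9 and 6 of the 36 fits that leave out 1 array. With salt 5 of 6 did, against 73.1%. The salt response itself differed between populations for RALFL22 (adjusted p = 0.00715), RALFL34 (0.00981) and RALFL24 (0.0431), which is 3 of 6 against 46.6% of all probe sets, and the RALFL24 call was lost in 20 of the 36 fits that leave out 1 array. The shares of the 6 genes are near the background.

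Of 44 genes asked for as receptors, co-receptors, wall partners, protease and effectors of RALF peptides, 5 had a probe set naming 1 gene. The pollen receptor genes ANX1 and ANX2 reached at most 18.1 and 15.9 and were not tested. That left the receptor kinase genes FER and THE1 and the protease gene S1P, whose product cleaves the RALF23 precursor.

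FER changed in opposite directions in cortex and protophloem. In cortex it read 1372, 2087 and 1915 on standard medium and 554, 492 and 591 with salt, a difference of -1.67 ± 0.40 (SE, adjusted p = 0.00191). In protophloem it read 305, 119 and 130 on standard medium and 995, 967 and 1120 with salt, a rise of 2.49 ± 0.40 (SE, adjusted p = 7.04e-05) against 11.8% of all probe sets called higher there. In both populations the arrays of the 2 media did not overlap, as for 19.4% of all probe sets with salt below in cortex and 15.9% with salt above in protophloem. Each of these differences had the opposite sign to that of RALFL32, as had those in endodermis (-0.48) and columella (0.51), which did not pass the test. In stele (0.78) and epidermis (-1.03) FER had the same sign as RALFL32. The RALFL32 sign was not settled in columella and epidermis. The difference between the 6 responses of FER passed the F-test (adjusted p = 4.84e-05). With the GAPDH ratio as a covariate the cortex difference was -0.84 and lost its call (adjusted p = 0.142).

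In epidermis FER read 998, 1127 and 1442 on standard medium and 478, 446 and 862 with salt, a difference of -1.03 that did not pass the test (adjusted p = 0.0542). It passed with an offset of 64 (adjusted p = 0.0459), a filter at the 60th percentile (0.0481), the replicate number as a block (0.0325), epidermis fitted alone (0.00875) and replicates 1 and 2 only (0.0185), and in 6 of the 36 fits that leave out 1 array. With the GAPDH ratio as a covariate the epidermis difference changed sign, to 0.30 (adjusted p = 0.736). In stele FER read 336, 348 and 1227 on standard medium and 777, 873 and 1135 with salt. The stele difference of 0.78 did not pass the test (adjusted p = 0.145). Without stele standard replicate 3, an array high in root hair markers, and with all 3 salt arrays kept, it was 1.38 (adjusted p = 0.00649).

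THE1, a sensor of wall integrity, fell in cortex, stele and endodermis, the populations in which the RALFL32 mean was higher with salt. In cortex it read 1849, 1831 and 1735 on standard medium and 239, 226 and 305 with salt, a fall of 2.75 on the log2 scale (SE 0.41, adjusted p = 9.34e-06). In stele it read 849, 823 and 1597 against 203, 182 and 336 (-2.09 ± 0.41 SE, adjusted p = 0.00051), and the difference was -1.78 (adjusted p = 0.00302) without standard replicate 3. In endodermis it read 1526, 1722 and 1348 against 221, 176 and 982 (-2.11 ± 0.41 SE, adjusted p = 0.0023), a call that the 6 endodermis arrays fitted alone did not give (adjusted p = 0.126). There 1.02% of all probe sets were called lower. In protophloem, where RALFL32 was lower, the THE1 difference of 0.55 did not pass the test (adjusted p = 0.335). Nor did those in epidermis (-0.94, adjusted p = 0.0862) and columella (-0.65, adjusted p = 0.283), where RALFL32 had no settled sign. The epidermis difference was called with the replicate number as a block (0.0467), epidermis fitted alone (0.0114) and replicates 1 and 2 only (0.00424). It was also called in 2 of the 36 fits that leave out 1 array. With the GAPDH covariate it was 0.39 (adjusted p = 0.656).

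The responses of THE1 differed between populations (F-test adjusted p = 0.000558), and its mean response was -1.33 ± 0.17 (SE, adjusted p = 1.34e-07). S1P passed no test of a salt response by limma, with its largest difference in cortex (-0.73 ± 0.30 SE, adjusted p = 0.0583), where it read 291 ± 65.8 and 178 ± 82.6 (SD, n = 3). Without cortex salt replicate 3 that difference was -1.04 (adjusted p = 0.00933), and with the replicate number as a block its adjusted p was 0.0474. With the GAPDH ratio as a covariate the S1P difference in cortex was -0.23 (adjusted p = 0.669). Over the 12 group means Pearson's r with RALFL32 was -0.379 for FER, -0.351 for THE1 and -0.344 for S1P.

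**Figure D3:**
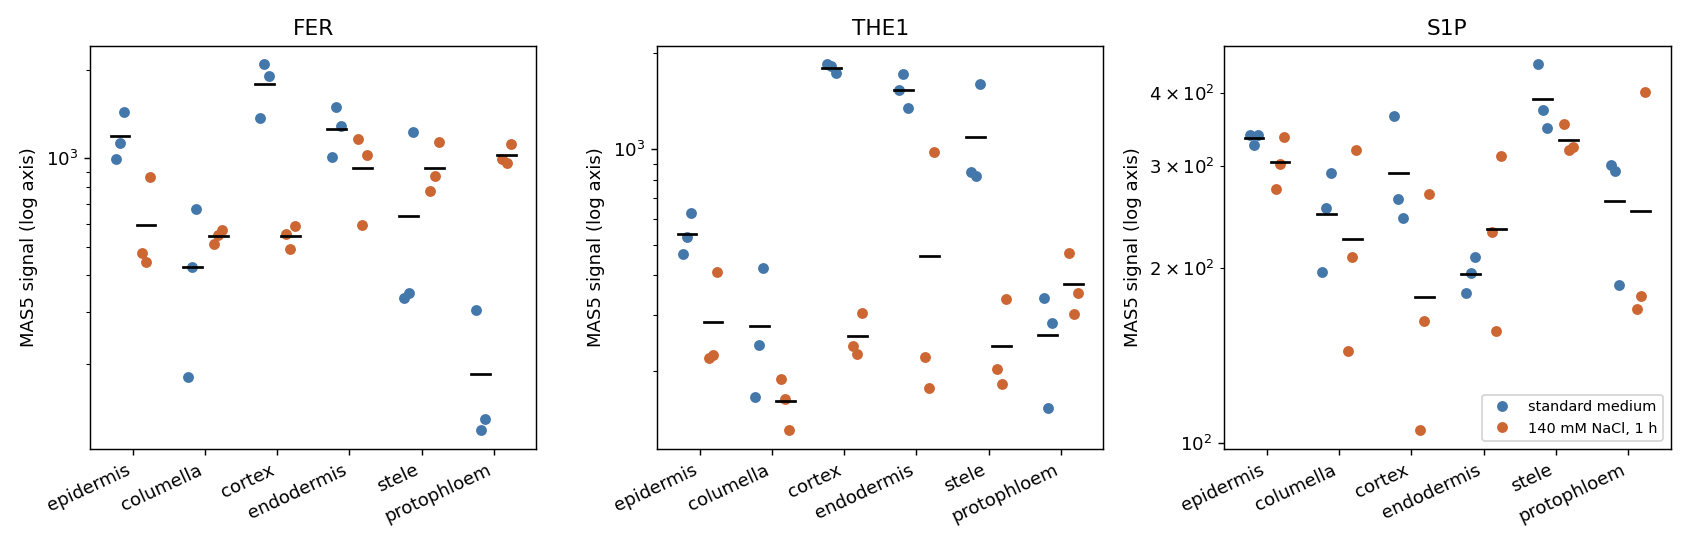
MAS5 signal (log axis, its range set for each gene) of FER, THE1 and S1P on each array by population, with standard medium in blue and 1 h of 140 mM NaCl in orange; black bars are means of 3 arrays. In cortex the FER arrays fall from 1372 to 2087 down to 492 to 591, and in protophloem they rise from 119 to 305 up to 967 to 1120.

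The genes next to RALFL32 on the chromosome, in RefSeq gene order, did not share one response. AT4G14020, the adjacent gene on one side, was brightest in protophloem, as RALFL32 was on standard medium, at 827 ± 211 (SD, n = 3). In cortex it read 8.62, 1.13 and 8.43 on standard medium and 50.1, 34.8 and 72.5 with salt, a difference of 1.62 ± 0.44 (SE, adjusted p = 0.00477) against 22.4% of all probe sets called higher there. Each of these standard arrays, and salt replicates 1 and 2, lay below the array's 40th percentile, so the cortex difference rests on low signals. In protophloem AT4G14020 read 591, 890 and 999 against 563, 466 and 113 (-1.32 ± 0.44 SE, adjusted p = 0.0272). Both differences had the sign of the RALFL32 difference, and in stele the value was 0.77 (adjusted p = 0.191), or 0.92 (adjusted p = 0.151) without standard replicate 3.

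The AT4G14020 calls changed with the settings. The cortex call was lost with an offset of 64 (adjusted p = 0.0634), with quantile normalization (0.0501) and with the GAPDH ratio as a covariate (0.15). The protophloem call was lost without protophloem salt replicate 3 (adjusted p = 0.266), standard replicate 2 (0.094) or standard replicate 3 (0.089), and with the GAPDH covariate (0.391). Pearson's r of AT4G14020 with RALFL32 over the 12 group means was 0.576.

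AT4G14000, the adjacent gene on the other side, differed by -0.11 in cortex (adjusted p = 0.787) and fell in stele (-1.04, adjusted p = 0.00834), where RALFL32 was higher, and its r with RALFL32 was -0.222. The stele call was lost without stele standard replicate 2 (adjusted p = 0.0539), and without standard replicate 3 the difference was again -1.04 (adjusted p = 0.013). AT4G13990, with 3 genes between it and RALFL32, rose in epidermis (1.41, adjusted p = 0.00142), against 15.6% of all probe sets called higher there, and in cortex (0.98, adjusted p = 0.0186), and its r was -0.184. Its cortex call was lost with quantile normalization (adjusted p = 0.212), an offset of 64 (0.0668), cortex fitted alone (0.0739) and replicates 1 and 2 only (0.19). It was also lost without cortex salt replicate 1 (adjusted p = 0.0735), salt replicate 3 (0.077) or standard replicate 3 (0.123). AT4G14050 was too dim to be tested. RALFL31, which has 12 genes between it and RALFL32, had an r of -0.12.

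The 6 genes whose 12 group means were most like those of RALFL32, of 9781 genes compared, were AT1G31050 and AT4G39675 (Pearson's r 0.95 each), AT5G43180 (0.934), AT1G16310 (0.932), AT5G05790 (0.928) and AT4G33550 (0.918). The next gene had an r of 0.916, and the median over the 9891 probe sets of the genes compared was 0.04. These genes were chosen for their likeness to RALFL32, so their values are a description too. Their group means share arrays and scaling with those of RALFL32. When the likeness was ranked by Spearman's rho, 3 of the 6 remained among the first 6, a tie at the sixth place included, and over the 36 single arrays 4 did.

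In all 6 the cortex arrays with salt lay above those on standard medium, as for 29.8% of all probe sets, and nothing is read from this count because the genes were chosen for following RALFL32. AT4G39675 read 8.45, 24.9 and 16 in cortex on standard medium and 273, 263 and 279 with salt. In stele it read 126, 119 and 463 on standard medium and 1526, 1470 and 1298 with salt, and in protophloem 1584, 1878 and 2006 against 593, 152 and 777. Its salt arrays thus lay above the standard arrays in cortex and stele and below them in protophloem, as those of RALFL32 did. So did the arrays of AT4G33550, with 44.8, 53.6 and 55.2 in cortex on standard medium against 547, 546 and 480 with salt. Its protophloem arrays read 1432, 1708 and 1549 against 1003, 555 and 999.

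AT5G43180 had cortex means of 23.3 ± 8.84 on standard medium and 249 ± 28.7 with salt, and stele means of 146 ± 103 and 864 ± 107 (SD, n = 3), while its protophloem arrays overlapped between media. AT5G05790 differed in protophloem, where its mean was 935 on standard medium and 1218 with salt, with overlapping arrays. AT1G16310 likewise overlapped there, at 223 ± 95.4 and 286 ± 272 (SD, n = 3). AT1G31050 had group means of at most 73.7, near the background, and its cortex mean went from 1.86 to 46.8. Stele standard replicate 3 was the highest of its group for RALFL32 (761) and for all 6 of these genes, from 46.4 for AT1G31050 to 1336 for AT4G33550. Without it the stele difference was 3.38 for AT4G39675, 3.31 for AT4G33550, 3.11 for AT5G43180, 3.01 for AT1G16310, 2.14 for AT5G05790 and 1.55 for AT1G31050.

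**Figure D4:**
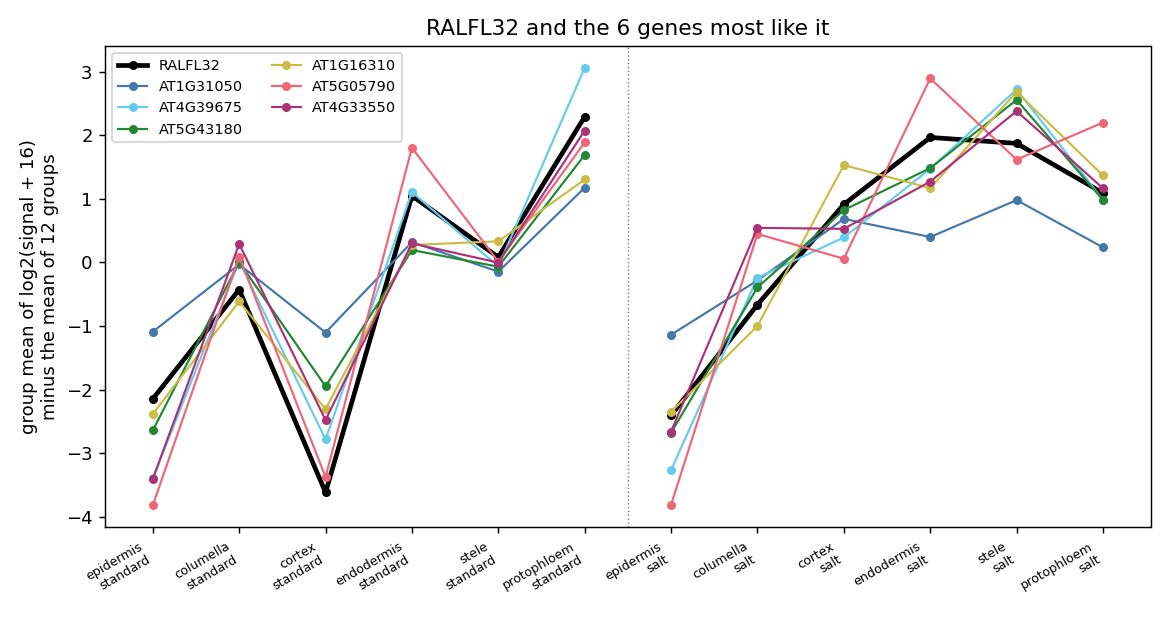
Group means of log2(signal + 16), each minus the gene's mean over 12 groups, for RALFL32 (black) and the 6 genes with the highest Pearson's r to it, with standard medium on the left and 1 h of 140 mM NaCl on the right. All 7 lines are higher in cortex with salt than on standard medium, and in protophloem the salt-minus-standard difference is -2.08 for AT4G39675 and 0.31 for AT5G05790.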

How the data were processed

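The deposited values are 1 linear signal intensity per probe set and array on 36 ATH1 arrays, made by the authors with MAS5, per the submitters' processing notes (version not given in the sources used here). Each array had a trimmed mean of 250.02 to 250.03, so a shift of most transcripts in 1 direction is removed. The RNA was amplified in 2 cycles per the labels' protocols. Of 22810 probe sets, 64 were controls, 13513 named 1 gene, 503 several and 8730 none. Genes were named from the GEO platform annotation, with 13436 of the 1-gene probe sets matched by gene ID to RefSeq (TAIR10.1), used for names and gene order only. Other genes asked for were not measured by a probe set naming 1 gene. No sequences were used here.

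Values were taken as log2(signal + 16). Tests covered the 17633 probe sets that exceeded an array's 40th percentile in 3 or more arrays. A mean for each of 12 groups was fitted with limma 3.58.1 (lmFit, eBayes with trend, 24 residual degrees of freedom) in R 4.3.3, which was checked on simulated data. All p-values are two-sided and Benjamini-Hochberg adjusted over the probe sets tested, with calls under 0.05. Unadjusted values are named as such. Figures were drawn with matplotlib 3.10.9, pandas 2.3.3 and numpy 2.4.6 in Python 3.11.15.

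The genes named are RALFL32, every RALF gene and RALF pathway gene with a 1-gene probe set, the 2 nearest such genes on each side, the 6 genes with the highest Pearson's r over the group means, and tissue markers. RALFL32 and these lists were chosen with earlier results of these data known. Pollen PEX genes were taken as unmatched, since their symbols belong to peroxisome genes in the annotation. Same-numbered replicates of the 2 media and of the populations were not treated as pairs. Between the 2 media of each population their deviations correlated at -0.115 to 0.445, with 8 of 18 pairs over 0.1. Alternatives were another offset, filter or normalization, the GAPDH ratio as a covariate, a replicate block, each population alone, and leaving out arrays.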

Additional observations from a re-analysis of the deposited data

Results flagged for a closer look

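RALFL32 differed between groups in its response to the same treatment: every salt array lay above the standard arrays in cortex (log2 difference 4.53) and in stele (1.79), and every one lay below them in protophloem (-1.20). This difference between populations was not tested, because the gene was chosen with its pattern known.

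Among the genes that could be tested, the 6 salt responses differed by limma's F-test for RALFL22 (adjusted p = 0.00715), whose difference ran from -1.87 in epidermis to 0.43 in cortex. They differed for RALFL34 (adjusted p = 0.00981), from -1.64 in cortex to 0.62 in epidermis, and for RALFL24 (adjusted p = 0.0431), from -1.74 in epidermis to -0.15 in cortex. FER (adjusted p = 4.84e-05) ran from -1.67 in cortex to 2.49 in protophloem. THE1 (adjusted p = 0.000558) ran from -2.75 in cortex to 0.55 in protophloem.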

How the results depend on the processing

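The RALFL32 difference kept its sign in cortex, stele, endodermis and protophloem under the alternatives run. In epidermis (-0.26) it was 0.10 with replicates 1 and 2 only, and the RALFL33 difference there (0.30, not called) was -1.50 with the GAPDH covariate (adjusted p = 0.0259). RALFL32 in cortex (4.53) was 5.28 with an offset of 1 and 3.42 with an offset of 64, and its endodermis-minus-cortex difference on standard medium (4.67) was 5.41 and 3.55; a low signal weighs on these values, and the offset acts by construction. Leaving out 1 array, the RALFL32 salt difference ran from 4.33 to 4.76 in cortex, 1.62 to 2.12 in stele, 0.63 to 1.2 in endodermis, -1.56 to -1 in protophloem, -0.54 to 0.22 in epidermis and -0.75 to 0.09 in columella, so that the last 2 have no settled sign. Over the 6 populations, other RALF genes had 0 calls higher, and 1 with the GAPDH covariate (RALFL33 in protophloem), 1 with each population fitted alone (RALFL34 in epidermis) and 2 with replicates 1 and 2 only, a setting chosen after seeing the data. That setting also gave 1 such call in the mean response, 2 pathway calls higher (1 before), 8 lower (4 before) and 2 lower in the mean (1 before). With the replicate number as a block, 1 other RALF gene was called higher (RALFL33 in cortex, adjusted p = 0.0439) and 7 pathway calls were lower in place of 4; the numbers are not known to pair the samples. Leaving out 1 array, other RALF calls ranged from 0 to 1 higher and 7 to 9 lower, F-test calls between populations from 4 to 6 and for the interaction from 2 to 3, and pathway calls from 1 to 2 higher and 4 to 6 lower. By Spearman's rho 3 of the 6 most like genes were shared. Of all probe sets, the GAPDH covariate called 2957 in place of 4983 in epidermis, 3193 in place of 6719 in cortex and 2287 in place of 4273 in protophloem. Replicates 1 and 2 only called 6047 in place of 2503 in columella, 1968 in place of 444 in endodermis and 7196 in place of 4469 in stele. Each population alone called 8046 in epidermis, 539 in columella, 172 in endodermis and 1887 in protophloem. Leaving out 1 array gave 629 to 4048 in columella, 222 to 911 in endodermis, 2245 to 5798 in stele and 2253 to 4679 in protophloem. The cause of these shifts was not tested.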
